A study of Trichoderma reesei with 12 samples.

Results

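The 7 rows described here are TrE0659C, TrE0660W, TrE0661W, TrE0662C, TrE0663W, TrE0664C and TrE0665C of a table of 10879 gene rows from Trichoderma reesei, a filamentous fungus grown for its secreted cellulases. They were chosen by a readout and by place: TrE0662C is the row whose reads are missing from a strain deleted for sor4, and 3 rows on each side of it in table order were added. Table order is not a coordinate, and distances between the genes are not known here. RNA was sequenced from mycelium grown for 96 h at 28 °C on cellulose, in constant darkness or in light. The parent strain, QM6aΔku80 (called ku80 here), lacks ku80, a gene for joining broken DNA ends whose loss eases gene targeting. The second strain, QM6aΔku80Δsor4 (called sor4 here), lacks both genes, so the ku80 deletion is shared by every library. There were 2 libraries of ku80 and 4 of sor4 in each condition, 12 in all; the labels do not say whether the replicates were separate cultures or the deletion strain more than 1 clone, so p-values measure only the spread between these libraries.

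Sorbicillinoids are yellow polyketide pigments of Trichoderma. Their genes form the SOR cluster, in which sor1 and sor2 encode polyketide synthases that build the carbon chain, sor3 a monooxygenase that oxidises it, sor4 a transporter of the major facilitator family, and ypr1 and ypr2 transcription factors. Fungal clusters of this kind are often switched on or off together, and in Trichoderma reesei light acts on many of them through photoreceptors. The table gives no gene names, and none of its identifiers (0) matched the 9116 genes of the RefSeq reference table, so which of the 7 rows is which SOR gene is not stated here; the 7 SOR symbols looked for matched nothing (0), and no sequence is shown.

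Total counts ran from 7844524 to 12027855 per library. All 7 rows were among the 8939 rows with enough counts to be tested, TrE0661W and TrE0665C only through their counts in darkness; since a row kept by its dark counts alone has to be lower in light, these are given by their counts and without a p for light. The lengths in the table were 7668 bases for TrE0659C, 7902 for TrE0660W, 1371 for TrE0661W, 1605 for TrE0662C, 1995 for TrE0663W, 1725 for TrE0664C and 1992 for TrE0665C. All 7 are multiples of 3, as coding lengths are. TrE0659C and TrE0660W are long genes, since 30 rows of the table are at least as long as TrE0659C and the median row has 1113 bases.

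In ku80 in darkness the 7 rows were abundantly transcribed. They held 1.51% of all counts in replicate 1 and 1.79% in replicate 2. Compared per length (CPM per 1000 bases, where CPM is the count scaled to a common library size), TrE0662C stood far above the other 6, at 2500 and 3608 CPM per 1000 bases in the 2 libraries. It ranked 30 and 18 among all rows by that measure. TrE0660W followed at 707 and 780 CPM per 1000 bases and TrE0659C at 570 and 575. The next 3 rows could not be ordered beyond their spread: TrE0664C stood at 424 and 321 CPM per 1000 bases, TrE0663W at 277 and 389, and TrE0661W at 309 and 313. TrE0665C was lowest, at 22.5 and 44.99 CPM per 1000 bases. The ratio of TrE0662C to TrE0659C within a library, per length, was 4.39 and 6.28, so the row later found missing carried more reads per base than either long gene beside it.

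**Figure D1:**
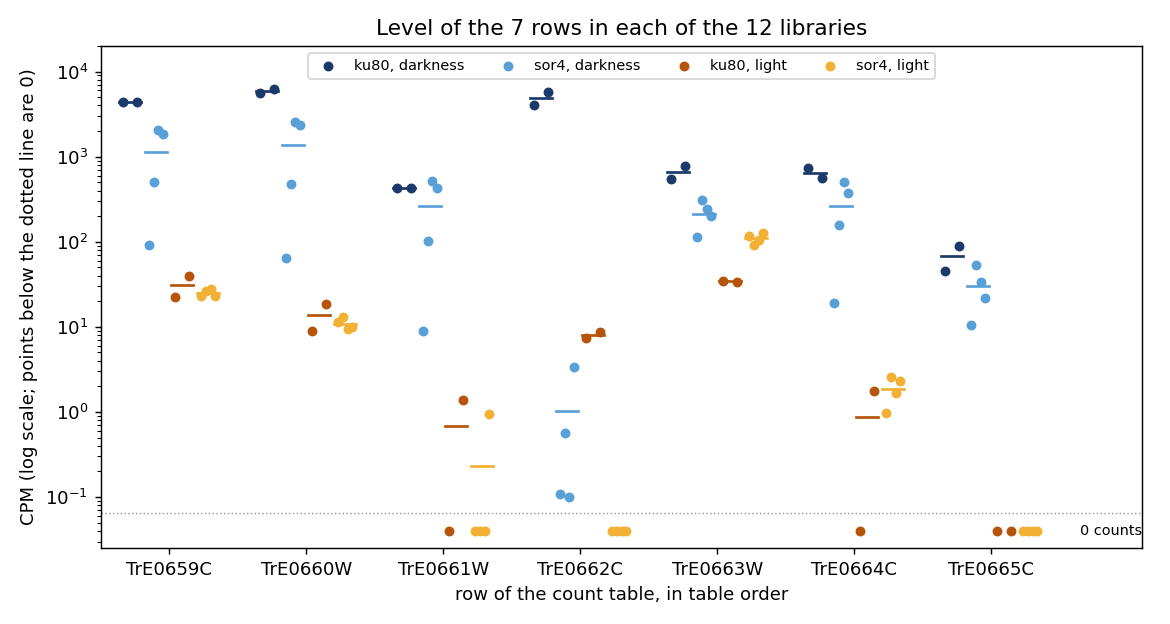
CPM (log scale) of each of the 7 rows in the 12 libraries, 1 point per library, short lines at the group means, and points below the dotted line at 0 counts. TrE0662C is at 4012 and 5792 CPM in ku80 in darkness and at 0 in the 4 sor4 libraries in light, and TrE0663W is the row that stays nearest to its dark level in light.

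Every row of the region was far lower in light than in darkness in ku80. Cultures were sequenced in bulk, so fewer hyphae using a gene and less RNA in each cannot be told apart, and with no gene names the mycelium could not be checked by markers. Of the 5 rows that would be kept by the light libraries of both strains alone, 5 passed the test for light against darkness in ku80. All 5 were lower in both ku80 light libraries than in both dark ones. In the same comparison 22.8% of all tested rows were called lower, 8.77% by at least 4-fold, and 36.6% were lower in both light libraries than in both dark ones. The 5 rows fell at least 4-fold, and their median log2 fold change was -8.74, against -0.02 over all tested rows. TrE0662C is among the 5, although its ku80 reads took part in the choice of the region. TrE0664C is also among them, with 0 and 14 counts in the ku80 light libraries, so that its place there leans on the sor4 light libraries. The test was edgeR's quasi-likelihood test with Benjamini-Hochberg adjustment over the 8939 rows, and every adjusted p below comes from it.

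The long rows fell to a low but measurable level. TrE0659C stood at 4368 and 4407 CPM in darkness and at 22.5 and 39.6 CPM in light, or -7.15 on the log2 scale (SE 1.21, adjusted p = 0.000684). TrE0660W went from 5586 and 6168 CPM to 9.02 and 18.8 CPM, or -8.74 on the log2 scale (SE 1.5, adjusted p = 0.000745), and -9.33 without ku80 light replicate 2. In both rows ku80 light replicate 2 was the higher light library. TrE0662C went from 4012 and 5792 CPM to 7.49 and 8.75 CPM, or -9.24 on the log2 scale (SE 0.94). As its ku80 reads are part of the readout that chose it, this is a description.

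TrE0661W, TrE0664C and TrE0665C were at or near 0 counts in ku80 in light. TrE0661W had 4097 and 4767 counts in darkness and 0 and 11 in light (log2 fold change -9.42, SE 1.91). TrE0664C had 7074 and 6165 counts in darkness and 0 and 14 in light (log2 fold change -9.67, SE 1.55, adjusted p = 0.000477). The light counts of both rows came from replicate 2, and the log2 fold changes were -15.08 and -15.67 without it and -8.25 and -8.50 without replicate 1. Under limma-voom, a weighted linear model, TrE0664C did not pass (adjusted p = 0.267, limma). TrE0665C had 433 and 997 counts in darkness and 0 in both light libraries, a level at least 422-fold lower if the light group is set to 3 counts, the floor used for a group at 0.

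TrE0663W kept the most of its dark level. It stood at 553 and 777 CPM in darkness and at 34.7 and 34.0 CPM in light, or -4.27 on the log2 scale (SE 0.39, adjusted p = 7.24e-06). The pooled counts gave a 19.5-fold lower level in light, with a 95% exact binomial interval of 18.0 to 21.2 for counting error alone, against 147-fold for TrE0659C (135 to 160) and 445-fold for TrE0660W (393 to 507). Such intervals do not cover the spread between libraries.

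**Figure D2:**
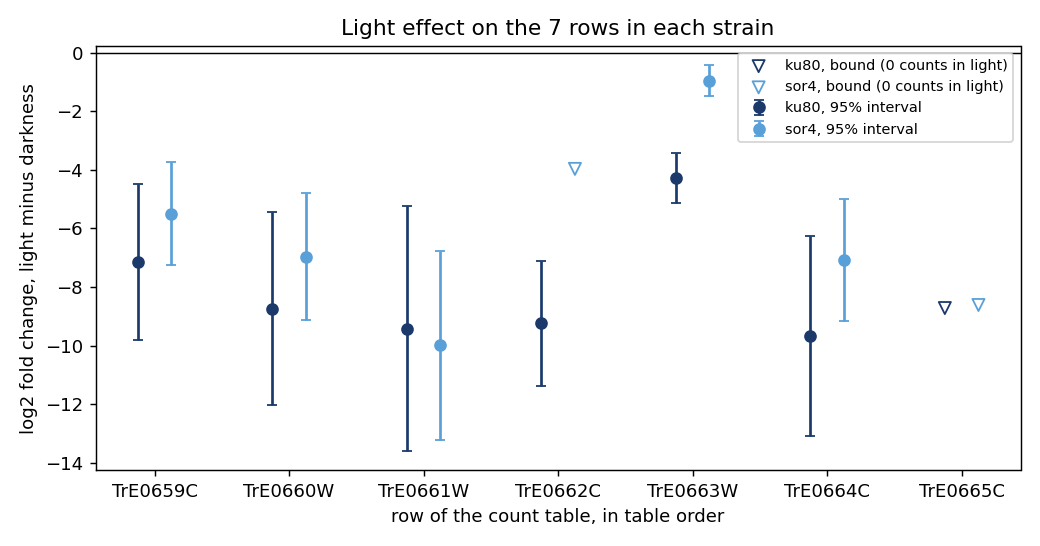
Log2 fold change of light minus darkness for each row in ku80 and sor4, as points with 95% intervals of the edgeR fit, or as open triangles at the bound against 3 counts where light had 0 counts (the fall is at least this large). In ku80 every value lies below -4, and in sor4 TrE0663W is at -0.96; the triangle of TrE0662C in sor4 rests on 46 counts.

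In the sor4 strain, measured in separate libraries, the region was again lower in light. TrE0662C is left out of the counts here, because its few reads in sor4 are those that chose the region. Of the other 4 rows kept by their light libraries alone, 4 were called lower, where 28.8% of all tested rows were, and 3 fell at least 4-fold, where 10% of all tested rows did. Without overlap between the 4 dark and the 4 light libraries were 3 of the 4, where 27.4% of all tested rows were. The median log2 fold change of the 4 was -6.23, against -0.01 over all tested rows.

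TrE0659C stood at 91.4, 505, 2080 and 1853 CPM in sor4 dark replicates 1 to 4 and at 23.2, 26.6, 27.9 and 22.8 CPM in the light libraries (log2 fold change -5.49, SE 0.80, adjusted p = 0.000128). TrE0660W stood at 64.7, 483, 2584 and 2365 CPM in darkness and at 11.3, 13.0, 9.30 and 10.1 CPM in light (log2 fold change -6.97, SE 0.99, adjusted p = 0.000108). The light libraries lay close together in both rows, while the dark ones spread over more than an order of magnitude. Without dark replicates 1 and 2 the log2 fold changes were -6.29 and -7.83, and in the fit with a replicate block -4.85 and -6.12.

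TrE0661W had 82, 901, 5102 and 4983 counts in sor4 in darkness and 0, 0, 0 and 10 in light (log2 fold change -9.99, SE 1.47), and its log2 fold change was -14.34 without light replicate 4. TrE0664C had 177, 1392, 4991 and 4346 counts in darkness and 8, 29, 17 and 25 in light (log2 fold change -7.08, SE 0.96, adjusted p = 7.38e-05). TrE0664C did not pass under limma-voom (adjusted p = 0.0802, limma), and without dark replicates 1 and 2 the log2 fold changes of TrE0661W and TrE0664C in edgeR were -10.83 and -7.82. TrE0665C had 97, 470, 332 and 254 counts in darkness and 0 in the 4 light libraries, at least 393-fold lower with the floor of 3 counts.

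TrE0663W changed little in sor4 beside the other rows. It stood at 114, 306, 240 and 199 CPM in darkness and at 116, 92.7, 105 and 127 CPM in light, and dark replicate 1 lay within the range of the light libraries. Its log2 fold change was -0.96 (SE 0.24, 95% interval -1.49 to -0.43, adjusted p = 0.00552), a 1.94-fold lower level by pooled counts. TrE0662C, the missing row, had 46 counts over the 4 dark libraries and 0 over the light ones, at least 15.7-fold lower. Dark replicate 4 held 39 of the 46 counts.

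The strains are compared next as a description without a test, since the reads of TrE0662C in this contrast chose the region. In darkness TrE0662C had 38841 and 64425 counts in ku80 and 1, 5, 1 and 39 in sor4, a level 4278-fold lower by pooled counts (95% counting interval 3207 to 5843). In light it had 78 and 70 counts in ku80 and none in the 4 sor4 libraries, at least 108-fold lower with the floor of 3 counts. The log2 fold change in darkness was -12.08, and -14.18 without sor4 dark replicate 4.

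Around the missing row, 4 of the 6 neighbours were below both ku80 libraries in every sor4 library in darkness, where 8.32% of all tested rows were. The levels were unequal between the sor4 libraries. The 6 held 1.12% and 1.22% of all counts in the ku80 dark libraries and 0.0315%, 0.158%, 0.579% and 0.509% in sor4 dark replicates 1 to 4. Replicates 1 and 2 were far below replicates 3 and 4. TrE0659C stood at 2.08%, 11.5%, 47.4% and 42.2% of the ku80 mean in sor4 replicates 1 to 4, and TrE0660W at 1.10%, 8.22%, 43.98% and 40.2%. Both long rows were thus below both ku80 libraries in every sor4 library, with log2 fold changes of -1.95 (SE 0.77) and -2.10 (SE 0.88). Without replicates 1 and 2 these were -1.15 and -1.24, and in the fit with a replicate block -3.26 and -3.64. As ku80 has no replicates 3 and 4, the block sets ku80 mainly against sor4 replicates 1 and 2, the low ones.

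TrE0661W was low in replicates 1 and 2 but not in 3 and 4. It stood at 2.07%, 24.2%, 121% and 100.1% of the ku80 mean, so that the strains overlapped. Its log2 fold change of -0.69 (SE 0.96) was -3.75 with the block, and it turned to 0.15 without replicates 1 and 2. TrE0664C stood at 2.96%, 24.8%, 78.4% and 57.9% of the ku80 mean, with a log2 fold change of -1.29 (SE 0.78), which was -0.55 without replicates 1 and 2 and -3.25 with the block. Each sor4 value of TrE0664C was below both ku80 values, the nearest being 504 CPM in sor4 replicate 3 against 554 CPM in ku80 replicate 2.

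The remaining pair was less affected in replicate 1. TrE0663W stood at 17.1%, 46.0%, 36.1% and 29.9% of the ku80 mean, with no overlap between the strains and a log2 fold change of -1.63 (SE 0.28), which was -1.59 without replicates 1 and 2. TrE0665C stood at 15.5%, 80.1%, 49.9% and 32.3%, and replicate 2 overlapped ku80 (log2 fold change -1.17, SE 0.56, and -0.59 without ku80 dark replicate 2). The 4 neighbours with every sor4 library below both ku80 libraries were TrE0659C, TrE0660W, TrE0663W and TrE0664C, where 8.32% of all tested rows showed this. The median log2 fold change of the 6 was -1.46, against 0.01 over all tested rows. It was -3.25 in the fit with a replicate block, which sets ku80 mainly against sor4 replicates 1 and 2.

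**Figure D3:**
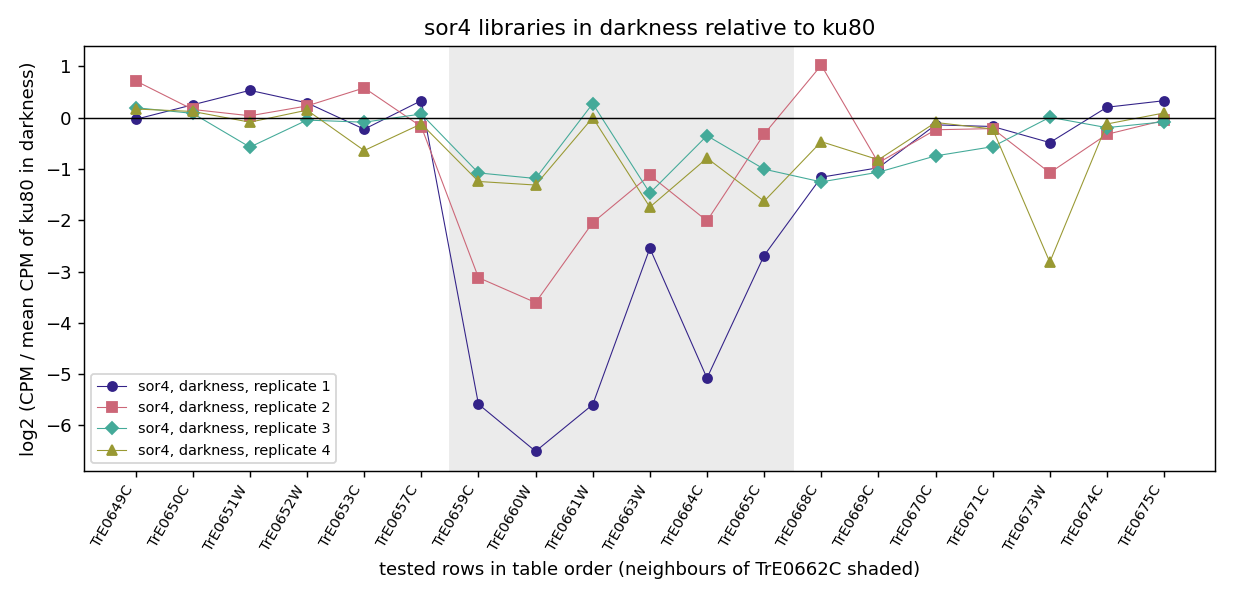
Log2 ratio of CPM in each sor4 dark library to the ku80 dark mean, for the tested rows in table order from 10 rows before to 10 rows after the members, with the 6 neighbours of TrE0662C shaded and TrE0662C itself left out. Replicate 1 reaches 1.10% of the ku80 mean at TrE0660W, while the nearest tested row before the members, TrE0657C, lies close to 0 in each library. The nearest tested row after them, TrE0668C, is uneven, at 3.03 to 14.65 CPM in sor4 against a ku80 mean of 7.21 CPM.

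The spread within the sor4 dark group differed between the members. From the lowest to the highest sor4 dark library TrE0661W differed 58.4-fold, TrE0660W 39.9-fold, TrE0664C 26.5-fold and TrE0659C 22.8-fold. TrE0665C differed 5.16-fold and TrE0663W 2.68-fold, where the median over the 6651 tested rows with a mean of at least 10 CPM in these libraries was 1.28-fold. The ku80 dark libraries lay close for TrE0659C (4368 and 4407 CPM), TrE0660W (5586 and 6168 CPM) and TrE0661W (423 and 429 CPM). They lay further apart for TrE0664C (731 and 554 CPM), TrE0663W (553 and 777 CPM) and TrE0665C (44.7 and 89.6 CPM). With 2 ku80 libraries, whether ku80 cultures vary as widely cannot be told apart from a difference between the strains. The rows TrE0669C, TrE0670C and TrE0671C, a few rows further on, were also below both ku80 libraries in every sor4 dark library, as were 8.32% of all tested rows. They did not have the low values of replicates 1 and 2. TrE0669C stood at 219, 234, 206 and 244 CPM in sor4 dark replicates 1 to 4, against 292 and 569 CPM in ku80. TrE0670C stood at 602, 564, 396 and 622 CPM against 653 and 675, and TrE0671C at 1387, 1348, 1056 and 1341 CPM against 1516 and 1609. The lowest sor4 value of each was in replicate 3. TrE0668C, the nearest tested row after the members, was low but uneven and overlapped ku80. It stood at 3.23, 14.65, 3.03 and 5.22 CPM in sor4 dark replicates 1 to 4, against 5.17 and 9.26 CPM in ku80.

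In light the neighbours showed no common difference between the strains. TrE0659C lay at 22.5 and 39.6 CPM in ku80 and at 22.8 to 27.9 CPM in sor4, and TrE0660W at 9.02 and 18.8 CPM and at 9.30 to 13.0 CPM. The log2 fold changes of these were -0.30 (SE 0.83) and -0.33 (SE 1.01), and that of TrE0660W turned to 0.25 without ku80 light replicate 2. TrE0661W (11 counts in ku80, 10 in sor4) and TrE0664C (14 and 79 counts) were too sparse to compare: their log2 fold changes of -1.26 and 1.30 moved to 4.39 and 7.30 without ku80 light replicate 2. TrE0665C had 0 counts in all 6 light libraries.

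TrE0663W was the exception in light. It stood at 34.7 and 34.0 CPM in ku80 and at 116, 92.7, 105 and 127 CPM in sor4, so that every sor4 library was above both ku80 libraries, as in 10.1% of all tested rows. The log2 fold change was 1.68 (SE 0.33, 95% interval 0.97 to 2.40), and over the alternatives with 1 library left out it ran from 1.59 to 1.76. Since TrE0663W was lower in sor4 in darkness and higher in light, its strain effects differed by 3.31 on the log2 scale (SE 0.43). A sign change of this kind without overlap in either condition was seen in 0.403% of all tested rows. Of the 7 rows 0 were called for the difference of the strain effects by edgeR (0% of all tested rows, 589 rows at an unadjusted p under 0.05); DESeq2 called 8 rows, 1 of them among the 7, and limma-voom 0.

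The make-up of the region, given as each row's percentage of the summed CPM per 1000 bases of the 6 neighbours, differed between conditions and between libraries. In ku80 in darkness TrE0660W held 30.6% and 32.2% of the sum, TrE0659C 24.7% and 23.7%, and TrE0663W 12.01% and 16.1%. In light TrE0663W alone held 81.0% and 64.1% in ku80 and 87.6% to 92.03% in sor4. Among the sor4 dark libraries TrE0663W held 57.1% in replicate 1 and 32.3% in replicate 2, against 8.58% and 8.45% in replicates 3 and 4. The sor4 dark libraries with the lowest summed level were therefore also those in which TrE0663W weighed most.

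**Figure D4:**
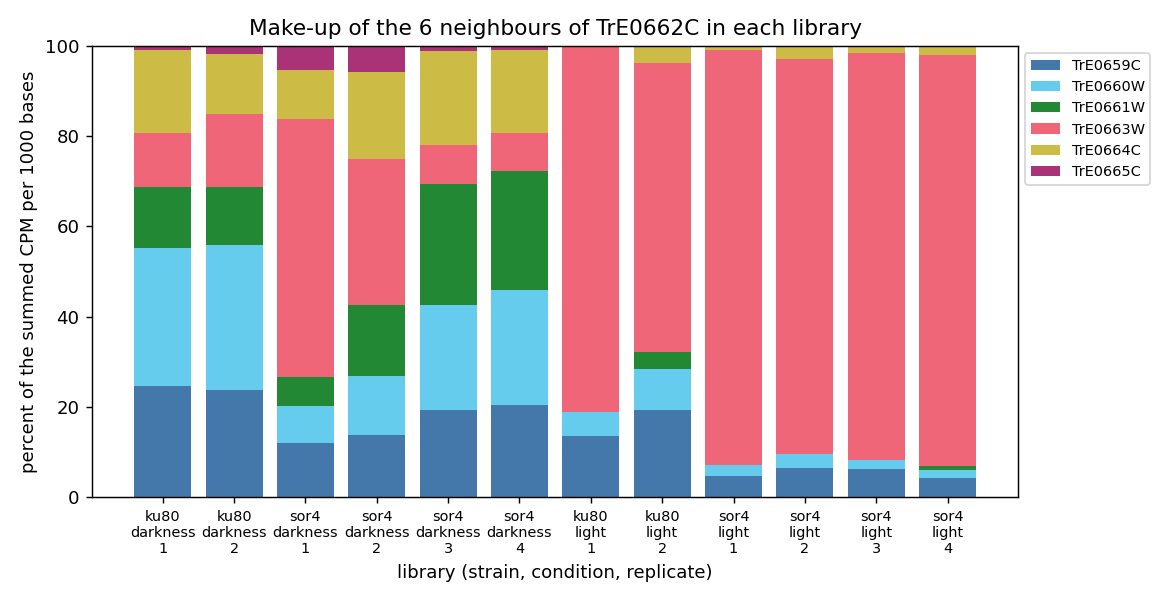
Stacked percentages of the summed CPM per 1000 bases that each of the 6 neighbours of TrE0662C holds in each library. TrE0663W takes 8.45% to 57.1% in the 6 dark libraries and 64.1% to 92.03% in the 6 light libraries.

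Ratios within a library do not depend on the scaling of libraries. Per length, TrE0660W stood at 1.24 and 1.36 times TrE0659C in the ku80 dark libraries and at 1.21 and 1.24 times in sor4 dark replicates 3 and 4. The ratio was 0.93 in sor4 dark replicate 2 (95% counting interval 0.89 to 0.97) and 0.69 in replicate 1 (0.62 to 0.76). In the 6 light libraries it lay between 0.32 and 0.47, below each dark library. The balance of the long rows was thus lower where their level was lower, both across conditions and among the sor4 dark libraries.

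TrE0661W and TrE0664C moved otherwise. The ratio of TrE0661W to TrE0659C was 0.54 in both ku80 dark libraries and 0.54 in sor4 dark replicate 1, and 1.14, 1.38 and 1.29 in replicates 2 to 4. For TrE0664C against TrE0659C it was 0.74 and 0.56 in ku80 and 0.93, 1.40, 1.08 and 0.89 in sor4, each sor4 value above both ku80 values. In light TrE0664C fell to 0.19 to 0.46 of TrE0659C in the 5 libraries where it had any count. TrE0663W stood at 0.49 and 0.68 times TrE0659C in ku80 and at 4.79, 2.32, 0.44 and 0.41 times in sor4 in darkness, and in light at 5.95 and 3.30 times in ku80 and 13.4 to 21.5 times in sor4. The ratio of TrE0665C to TrE0663W stayed within a narrower band than TrE0663W to TrE0659C over the 6 dark libraries, from 0.081 to 0.176. That band was no narrower than the one of TrE0660W to TrE0659C, from 0.69 to 1.36.

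**Figure D5:**
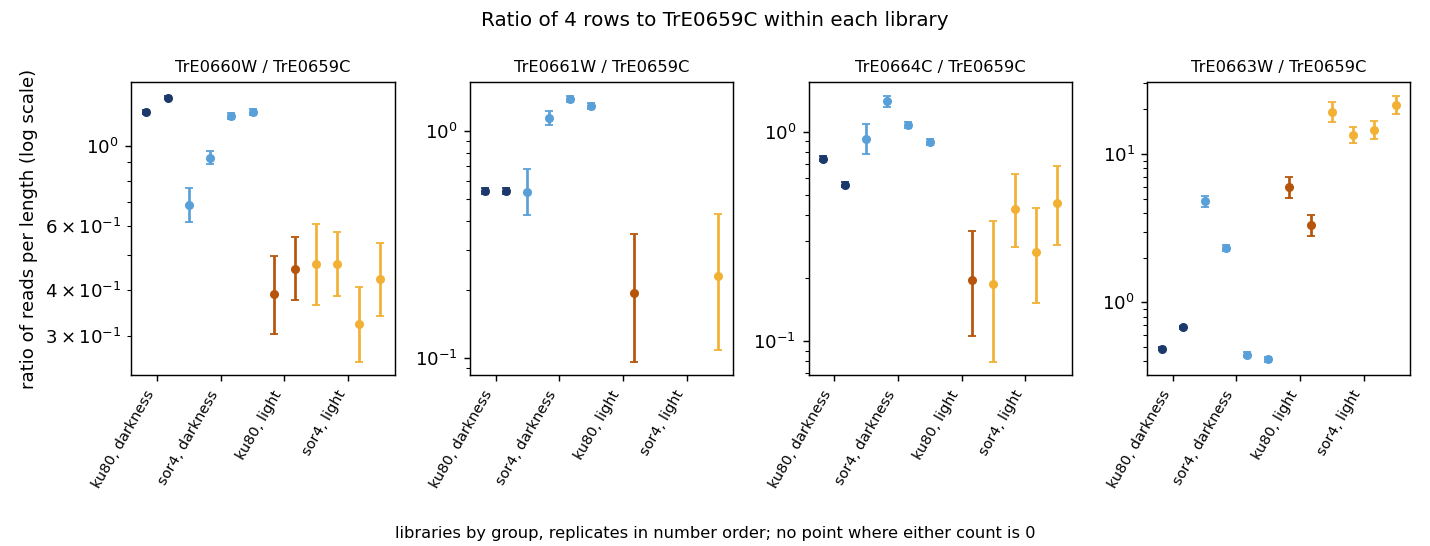
Ratio per length of 4 rows to TrE0659C within each library (log scale, different in each panel), with 95% exact binomial intervals for counting error; libraries with a count of 0 have no point. TrE0660W lies at 0.69 to 1.36 in darkness and 0.32 to 0.47 in light, and TrE0663W at 0.41 to 4.79 and 3.30 to 21.5.

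How far the members moved as 1 unit in darkness was described on log2(CPM + 1). The mean of the 6 neighbours had an SD of 1.73 over the 6 dark libraries. The log2 ratio of a single row to that mean had an SD of 0.35 for TrE0664C, 0.50 for TrE0659C, 0.75 for TrE0661W and 0.84 for TrE0660W, each smaller than the SD of the mean and of the row itself (1.94, 2.16, 2.24 and 2.52). For TrE0663W and TrE0665C the ratio had an SD of 1.05 and 1.11, as large as that of the rows themselves (1.00 and 1.04). The mean included each row itself, and this SD is also large for a row that follows the mean with a smaller swing. TrE0659C, TrE0660W, TrE0661W and TrE0664C thus kept closest to the mean between dark libraries. TrE0663W and TrE0665C varied less than the mean (SD 1.00 and 1.04 against 1.73), so how closely they followed its course is not given by this measure.

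Outside the 7 rows, the 10 rows on each side were compared in table order. Of these 20 rows 13 were tested, and in each strain 6 were called lower in light, 3 higher and 4 not called, where 22.8% and 28.8% of all tested rows were called lower. Among those called lower, TrE0668C, TrE0669C, TrE0670C and TrE0671C had at most 8 counts in any light library. Kept by their dark counts alone, these rows had to be lower in light. The counts of flanking rows are therefore a description, and no excess over the shares is read from them. Those called at least 4-fold lower in both strains were TrE0653C, TrE0668C, TrE0669C, TrE0670C and TrE0671C, where 7.67% of all tested rows were. The last 3 were silent in light: TrE0669C went from 292 and 569 CPM to 0 and 0.375 CPM in ku80, TrE0670C from 653 and 675 CPM to 0 and 0.875 CPM, and TrE0671C from 1516 and 1609 CPM to 0 and 0.250 CPM. Traces of these 3 rows and the traces of TrE0661W and TrE0664C fell in the same ku80 light library, replicate 2; the part of this in the light levels of the members was not tested. TrE0657C, the nearest tested row before the members, changed little by comparison (log2 fold change in light -0.64 in ku80 and -0.72 in sor4), and the untested rows nearest to the members, TrE0658C, TrE0666W and TrE0667W, had at most 13 counts in any library.

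Likeness to the region was measured over the 12 libraries as the root mean square difference between mean-centred log2(CPM + 1) of a row and that of the mean of the 6 neighbours. Of the members, TrE0659C lay nearest to the mean at 0.38 and TrE0663W farthest of the 6 at 1.97, while the median over the 8932 other tested rows was 3.00. Each of the 6 is part of that mean, which by itself brings it nearer than a row outside. The 10 nearest other rows were TrC0116W (0.93), TrF1124C (0.93), TrB0576W (0.98), TrC1526W (1.04), TrB0009W (1.05), TrA1909W (1.05), TrF1129W (1.08), TrA1878W (1.08), TrB0015C (1.12) and TrF0836C (1.12). None of the 10 is a flanking row, and 0 of them differed 10-fold or more among the sor4 dark libraries; TrC0116W, the nearest, stood at 219, 250.1, 312 and 290.3 CPM there. The list rests on the measure: by Pearson correlation 0 of the 10 stayed among the 10 nearest, with a pseudocount of 0.1 it was 1, and without sor4 dark replicate 1 it was 4. Among the 10 nearest by correlation, sought only in rows with an SD of at least 1, were TrC0133W (0.986) and TrE0065W (0.981). These were above TrE0665C (0.970) and TrE0663W (0.868). The other 4 neighbours stood at 0.992 to 0.996. Rows outside the region, picked as the nearest by 1 measure, thus followed its course more closely than some of its members by that measure. By root mean square difference TrC0133W and TrE0065W lay at 1.83 and 2.01, farther than TrE0665C at 0.77.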

How the data were processed

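The deposited table holds whole-number counts per gene row for each of the 12 libraries, with a length per row; per the labels' protocols, libraries were stranded and depleted of ribosomal RNA, and HISAT2 2.2.1 is named in the submitters' processing notes. The sources used here do not give the genome build, annotation, strand setting or treatment of shared reads, so genes that overlap or lie antisense may share reads. Groups follow the titles and treatment labels; the protocol text names darkness even for the libraries labelled light. The members, lists and tests were chosen with earlier results of these data known. Counts were fitted with edgeR 4.0.16 in R 4.3.3 (TMM scaling, default filter, quasi-likelihood test, 4 group means), checked on simulated counts. A row was called at an adjusted p under 0.05. The SE is the log2 fold change divided by the root of F. Named rows were the 7 members, the 10 rows most like them, and those of the 10 rows on each side that were called at least 4-fold in 1 direction in both strains. Alternatives were median-of-ratios factors, library size, no filter, DESeq2 1.42.0, limma-voom (limma 3.58.1), the compared groups alone, a replicate block, other pseudocounts and each library left out. Leaving out sor4 dark replicates 1 and 2 together was added after seeing the data. A lone library left in a group was assumed to vary like the others. Reads carry no molecular identifiers, so intervals and floors cover counting error only. Pairs of replicates differed beyond sampling noise (chi-square per row 7.29 to 82.8). Among the dark pairs those with sor4 replicate 1 were widest (53.2 to 82.8), against 22.1 to 38.7 for the others. The ku80 light pair stood at 63.7. The chi-squares are means over rows, which a few abundant rows can raise. How many rows departed in sor4 dark replicate 1 was not counted.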

Additional observations from a re-analysis of the deposited data

Results flagged for a closer look

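A check for a sample far from the others of its group, which marks about 1 group in 20 by chance, was run on 14 sets of 4 sor4 values and marked 2, both near 0 counts, where that rate does not hold. TrE0662C stood at 3.34 CPM (39 counts) in sor4 dark replicate 4, against 0.101 to 0.572 CPM in the other 3 sor4 dark libraries. TrE0661W stood at 0.933 CPM (10 counts) in sor4 light replicate 4, against 0 in the other 3 sor4 light libraries.

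TrE0663W was marked because every sor4 library was below ku80 in darkness and above it in light, a gap between the strain effects of 3.31 on the log2 scale. It was among the 7 rows of which 0 passed edgeR's test of that difference, while DESeq2 called 1 of the 7.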

How the results depend on the processing

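The count of members called for light, with the rows kept only through darkness and with TrE0662C counted in, was 7 in ku80 in each alternative except limma-voom, where it was 5; in sor4 it was 4 under limma-voom, 6 with only the groups compared (TrE0662C had too few counts to be tested) and 6 to 7 with 1 library left out. With the replicate block it was 7 in both strains, and the block changed no call of a light effect; same-numbered libraries of a strain correlated in their deviations by -0.123 to 0.0578, so the numbers were not taken to pair libraries. Without sor4 dark replicates 1 and 2 it was also 7 in both. The median strain difference of the 6 neighbours in darkness ran from -1.75 to -1.16 with 1 library left out. It was -1.20 without both replicates, -1.90 under limma-voom and -3.25 with the block, which sets ku80 mainly against sor4 replicates 1 and 2. In light this median was -0.15, with TrE0665C, which had 0 counts in light, entered as a log2 fold change of 0. It was -0.30 without TrE0665C. With only the groups compared it was 0.45, but over fewer rows, since TrE0661W and TrE0665C had too few light counts to be tested. It was -0.50 with the block, and -0.33 to 0.95 with 1 library left out, the highest without ku80 light replicate 2. The cause of these last moves was not tested, but 3 of the 6 rows had 0 to 79 counts per group there. The strain effects of TrE0663W differed by 3.05 to 3.54 with 1 library left out. The median SD of the ratios in darkness, 0.79, ran from 0.62 to 0.84. Of the 10 rows most like the region, 0 stayed by Pearson correlation, 1 with CPM + 0.1, 4 with CPM + 5 and 4 to 10 with 1 library left out. No direction of a called value reversed in any alternative run. Depth limits TrE0661W, TrE0664C and TrE0665C in light, where no strain difference was detectable.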
